A study of Drosophila melanogaster with 8 samples.

Results

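The effect of a hairpin transgene against Shavenbaby was followed in enterocytes, the absorptive cells of the Drosophila melanogaster gut. Libraries were taken by their titles: 2 labelled Ctrl and 3 labelled RNAiSvb, 5 of the 8 libraries of the series. The 3 other libraries, labelled SvbAct, carried a constitutive activator form of Shavenbaby. They lent their spread to the fit and are quoted for part of the genes. A gene given without SvbAct values may have moved the same way there. Every gene that passed a filter on low counts was tested, 8775 of 9177 in the table.

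The Ctrl genotype was MyoIA-Gal4, UAS-GFP/+; tubGal80TS/+, from a cross of the driver line to Canton-S, and the RNAiSvb genotype was MyoIA-Gal4, UAS-GFP/+; tubGal80TS/UAS-SvbRNAi. SvbAct flies came from a cross of that driver line to UAS-SvbACT::GFP. Gal4, UAS-GFP and the temperature-sensitive Gal80 repressor were thus carried by the controls too. All flies were virgin females, moved to 29 °C at 3 days of age and dissected 6 days later, at 9 days of age. MyoIA-Gal4 is active in enterocytes, but the strain label places UAS induction in ISCs (intestinal stem cells). The posterior midguts (R3 to R5) of more than 20 females per batch were pooled and digested, and patches of enterocytes held back by a 70 µm strainer were collected. The hairpin came from 1 line, and the control cross carried no hairpin. The action of the hairpin, its insertion and the genetic background of its line therefore cannot be told apart from each other here. Replicates were made on different days, but the labels do not tie libraries to days.

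The ovo locus encodes Shavenbaby, which regulates transcription. In the embryonic epidermis it is made as a repressor, and trimming by the proteasome turns it into an activator of genes that shape cuticle hairs. Enterocytes secrete proteases, carbohydrases and lipases into the gut lumen, take up the products, and lie beneath a chitin-rich peritrophic matrix that lines the gut.

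Total counts ran from 17628597 to 23748649 in the 5 libraries, and levels are given as CPM, each gene's share of the library's counts scaled by TMM factors. Leading enterocyte genes were abundant in both groups. Vha16-1 stood at 5884 and 6818 CPM in Ctrl and 8548, 4325 and 5490 CPM in RNAiSvb. mesh, a smooth septate junction protein, stood at 3215 and 3714 CPM in Ctrl and 3706, 3986 and 3909 CPM in RNAiSvb. The sum over 13 tested enterocyte markers was 17220 and 18700 CPM in Ctrl and 19140, 16240 and 16240 CPM in RNAiSvb. The sum is led by the most abundant markers, and single markers moved both ways. Of the 13, 5 lay lower and 2 higher in RNAiSvb without overlap, where 17.0% and 15.9% of all genes did. Alp4, lower in RNAiSvb, passed the test (edgeR adjusted p 0.0474). The sums over 9 stem cell and enteroblast markers (141.7 to 157.3 CPM) and over 15 enteroendocrine markers (393.3 to 548.5 CPM) overlapped between the groups. The 19 muscle markers summed to 1903 and 1859 CPM in Ctrl and to 2362, 1190 and 3497 CPM in RNAiSvb, so RNAiSvb held the lowest and the highest library. The 8 markers of the copper and iron cell region summed to 9271 and 10260 CPM in Ctrl and to less in each RNAiSvb library (7169, 5643 and 3678 CPM), mainly through the ferritin genes Fer1HCH and Fer2LCH. Neither ferritin gene passed the test (edgeR adjusted p 0.29 and 0.203), and the part of gut region in the results below was not tested. In bulk RNA, fewer cells of a type and less RNA per cell cannot be told apart.

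The targeted gene went against the label. ovo had 9 and 2 counts in Ctrl and 40, 26 and 61 counts in RNAiSvb, so every RNAiSvb library lay above both Ctrl libraries. The fitted log2 fold change was 2.63 (SE 0.63, edgeR adjusted p 0.0807), with 3.94 without Ctrl replicate 1 and 2.00 without Ctrl replicate 2. The DESeq2 Wald test gave 2.67 with an adjusted p of 0.000919, and limma-voom gave 2.67 with an adjusted p of 0.495. In edgeR the adjusted p was 0.239 with the compared groups alone and 0.161 with a replicate block, so the difference passed in 1 of these tests. No direction below therefore rests on reduced ovo RNA, and RNAiSvb stands throughout for the libraries labelled RNAiSvb.

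At an adjusted p under 0.05 in edgeR's quasi-likelihood test, 119 genes differed between RNAiSvb and Ctrl, 1.36% of those tested; genes that passed are said to be called. More fell than rose: 96 were lower (1.09%) and 23 higher (0.262%). These shares are the background for every count of called family members below. The median log2 fold change over all genes was 0.02. Fold changes given as a rise or a fall are on the log2 scale. All 119 had CPM values that did not overlap between the groups. Over all genes tested, such separation was found for 15.9% in the higher and 17.0% in the lower direction. At an unadjusted p under 0.05 there were 1191 genes (13.6%), 577 higher (6.58%) and 614 lower (7.0%), so the excess of falls was found among the called genes more than in that wider list. Of the called genes, 87 of 96 falls and 22 of 23 rises were at least 2-fold, and 42 falls and 12 rises were at least 4-fold. The count fell to 56 without Ctrl replicate 1, 24 without Ctrl replicate 2 and 66 without RNAiSvb replicate 1. A core of 21 genes, 20 lower and 1 higher, was called in each of the 5 fits that left out a Ctrl or RNAiSvb library.

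**Figure D1:**
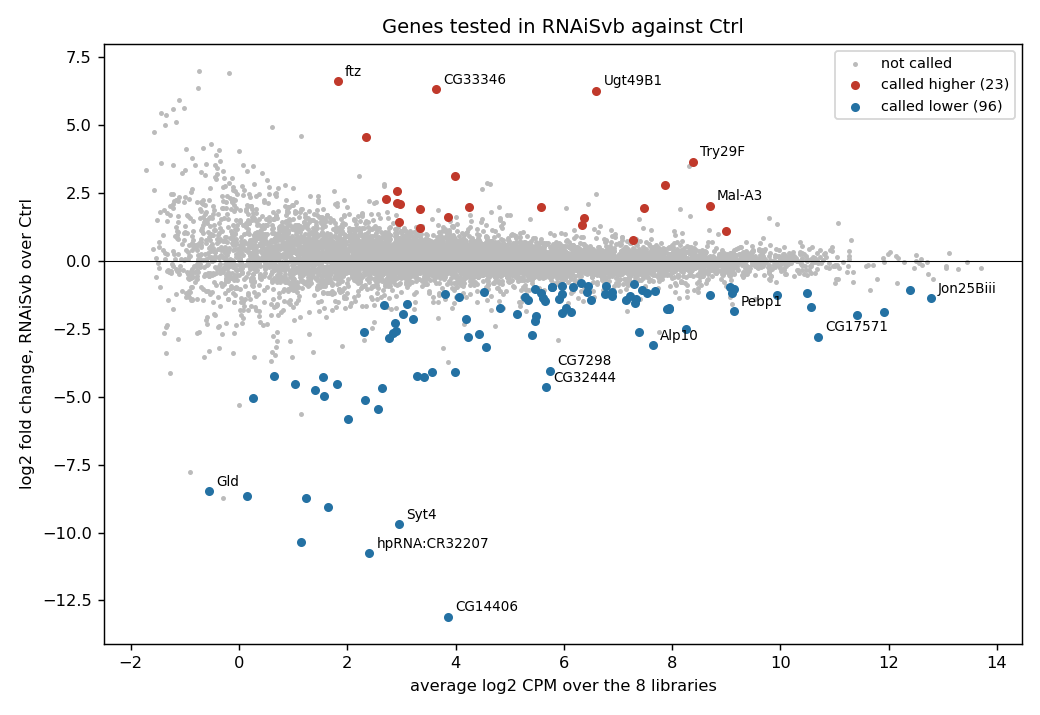
Average log2 CPM over the 8 libraries (x axis) against the fitted log2 fold change of RNAiSvb over Ctrl (y axis), with 1 point per gene tested; red points were called higher (23), blue points lower (96) and grey points were not called. Blue points outnumber red ones and reach further from 0, and fitted values of genes at 0 counts in RNAiSvb depend on edgeR's default prior count.

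Secreted proteases recurred among the falls. Of 16 Jonah proteases, chymotrypsin-like enzymes of the gut lumen, 7 fell and none rose, where 1.09% of all genes fell. The median log2 fold change of the 16 was -1.54. Their summed level was 53900 and 42840 CPM in Ctrl against 25850, 32190 and 22230 CPM in RNAiSvb. Jon25Biii was at 15277 and 11171 CPM in Ctrl and 4374, 6306 and 4467 CPM in RNAiSvb, Jon99Fi at 9362 and 7196 CPM in Ctrl and 2639.8, 1367 and 2770.0 CPM in RNAiSvb, and Jon99Ciii at 3479.6 and 2888 CPM in Ctrl and 973, 1267 and 727 CPM in RNAiSvb. For each of these genes, every RNAiSvb library lay below both Ctrl libraries. The fitted log2 fold changes were -1.39 for Jon25Biii (SE 0.25, edgeR adjusted p 0.0268), -1.87 for Jon99Fi (SE 0.35, edgeR adjusted p 0.0303) and -1.69 for Jon99Ciii (SE 0.26, edgeR adjusted p 0.0103). The fall was not particular to RNAiSvb: in SvbAct against the same Ctrl libraries the family median was -1.48. Jon25Biii, Jon99Fi and Jon99Ciii stood at -1.46, -1.69 and -1.76 there (edgeR adjusted p 0.0124, 0.0273 and 0.00584). None of them was called between SvbAct and RNAiSvb (edgeR adjusted p 0.889, 0.772 and 0.889). Jon25Bi, at -0.47 in SvbAct, did differ from RNAiSvb (edgeR adjusted p 0.0175).

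The remaining called members were Jon25Bi, Jon25Bii, Jon44E and Jon99Fii. Jon25Bii, with 103 and 126 CPM in Ctrl and 25.6, 19.4 and 29.3 CPM in RNAiSvb, was the only Jonah gene called in all 5 fits with a library left out. The fall did not extend over the whole family. Jon65Aii, Jon65Aiii and Jon65Aiv had estimates above 0 (0.39, 0.37 and 0.22, edgeR adjusted p 0.579, 0.636 and 0.825), and the neighbouring Jon65Ai stood at 1124 and 1085 CPM in Ctrl and 379, 571 and 363 CPM in RNAiSvb (log2 fold change -1.34, edgeR adjusted p 0.0511). The number of Jonah calls fell to 2 without Ctrl replicate 1, to 1 without Ctrl replicate 2 and to 1 without RNAiSvb replicate 1, while the median stayed between -1.60 and -1.41 over the 5 fits. Copies in this family are closely alike, so the share of reads given to each is uncertain. Jon25Biii and Jon99Fii were named after their values were seen.

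In a list of 21 further serine proteases of the S1 class, written after the calls were seen, 4 fell, 1 rose and the median was -0.21 (0.00 without RNAiSvb replicate 1). Over all genes tested, 1.09% fell and 0.262% rose. CG17571 was at 4902 and 2779 CPM in Ctrl and 374, 571 and 722 CPM in RNAiSvb, and fell by 2.79 (SE 0.35, edgeR adjusted p 0.00373), which was called in all 5 fits with a library left out. CG18180 (6360.5 and 5565 CPM in Ctrl and 1518, 2273 and 683 CPM in RNAiSvb) fell by 2.00, and its neighbour CG18179 (17.5 and 34.6 CPM in Ctrl and 1.18, 2.48 and 0.87 CPM in RNAiSvb) by 4.09 (edgeR adjusted p 0.0329 and 0.0143). CG8952 fell by 0.85 (edgeR adjusted p 0.0408). Both Ctrl libraries lay above all RNAiSvb libraries for each of them. In SvbAct against the same Ctrl libraries, CG17571 and CG18180 were called lower too, at -1.54 and -1.75 (edgeR adjusted p 0.0376 and 0.0346). CG18179 and CG8952 stood at -1.04 and -0.29 there and were not called (edgeR adjusted p 0.414 and 0.434). Of 7 astacin metalloproteases, CG15255 fell by 1.25 (SE 0.22, edgeR adjusted p 0.0214), from 1321 and 1731 to 599, 768 and 556 CPM, a call kept only without RNAiSvb replicate 2. The S1 and astacin members outside the rule for naming, CG18180, CG8952 and CG15255, were chosen after their values were seen.

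Single proteases went the opposite way. CG8299, also of the S1 class, was at 88.1 and 82.9 CPM in Ctrl and 281, 376 and 315 CPM in RNAiSvb, about evenly raised in the 3 libraries, and rose by 1.92 (SE 0.30, edgeR adjusted p 0.0106). Try29F, which belongs to the trypsins, was at 60.5 and 36.1 CPM in Ctrl and 404, 665 and 744 CPM in RNAiSvb, a rise of 3.64 (SE 0.61, edgeR adjusted p 0.0164). It was the only 1 of 11 trypsins called, and the median trypsin stood at 0.26 (-0.16 without RNAiSvb replicate 2 and -0.01 without Ctrl replicate 2). In SvbAct against the same Ctrl libraries Try29F was called higher too, at 2.38 (edgeR adjusted p 0.0498), while CG8299 stood at 0.10 (edgeR adjusted p 0.891). The 2 most abundant trypsins, alphaTry (4887 and 3616 CPM in Ctrl and 6266, 5691 and 4148 CPM in RNAiSvb) and thetaTry (1161 and 1279.6 CPM in Ctrl and 1878, 2561 and 846 CPM in RNAiSvb), overlapped between the groups. lambdaTry (491 and 546 CPM in Ctrl and 251, 318 and 323 CPM in RNAiSvb) and kappaTry (424 and 394 CPM in Ctrl and 259, 290.4 and 273 CPM in RNAiSvb) lay lower without overlap and without passing, with log2 fold changes of -0.80 and -0.58 (edgeR adjusted p 0.0873 and 0.282). Without Ctrl replicate 1 or Ctrl replicate 2 neither Try29F nor CG8299 was called. Those fits left 2 and 1 of the 4 falls in the S1 list, and the fit without RNAiSvb replicate 1 left 1.

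The maltases and amylases, which split starch and maltose, had estimates above 0 in all 13 tested members. Over all genes tested, 4599 of 8775 estimates were above 0. The median of the family was 1.36 (0.90 without RNAiSvb replicate 2), and 10 members had an unadjusted p under 0.05, where 6.58% of all genes were higher at that threshold. Those that passed the adjusted threshold were Mal-A3 and Mal-A6, maltases of the gut. Mal-A3 was at 173 and 177 CPM in Ctrl and 477, 756 and 906 CPM in RNAiSvb, all RNAiSvb libraries above both Ctrl libraries, and rose by 2.03 (SE 0.29, edgeR adjusted p 0.00649). Mal-A6 was at 58.9 and 36.5 CPM in Ctrl and 233, 603 and 143 CPM in RNAiSvb, highest in RNAiSvb replicate 2, and rose by 2.77 (SE 0.54, edgeR adjusted p 0.0342). In SvbAct against the same Ctrl libraries, Mal-A3 stood at 0.64 and Mal-A6 at 2.48 on the log2 scale. Mal-A3 differed between SvbAct and RNAiSvb (edgeR adjusted p 0.00968), as did 6.26% of all genes.

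Uncalled members varied widely between RNAiSvb libraries. Amy-p, an amylase, was at 773 and 612 CPM in Ctrl and 1528, 2890.5 and 902 CPM in RNAiSvb, with an estimate of 1.36 (edgeR adjusted p 0.232). Mal-A1 was at 1042 and 1128 CPM in Ctrl and 2625, 4172 and 1744 CPM in RNAiSvb, with an estimate of 1.39 (edgeR adjusted p 0.0673). For both genes RNAiSvb replicate 2 was highest and replicate 3 lowest of the 3, and neither overlapped with Ctrl. Mal-A7 did overlap: it was at 355 and 181 CPM in Ctrl and 417, 1182 and 149.7 CPM in RNAiSvb. Summed over the family, the level was 3303 and 3091 CPM in Ctrl and 6886, 12980 and 5291 CPM in RNAiSvb. No member was called without Ctrl replicate 1 or without Ctrl replicate 2, 1 without RNAiSvb replicate 1 and 3 without RNAiSvb replicate 3. The DESeq2 Wald test called 6. The genes are close copies, and reads shared between them make single members uncertain.

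**Figure D2:**
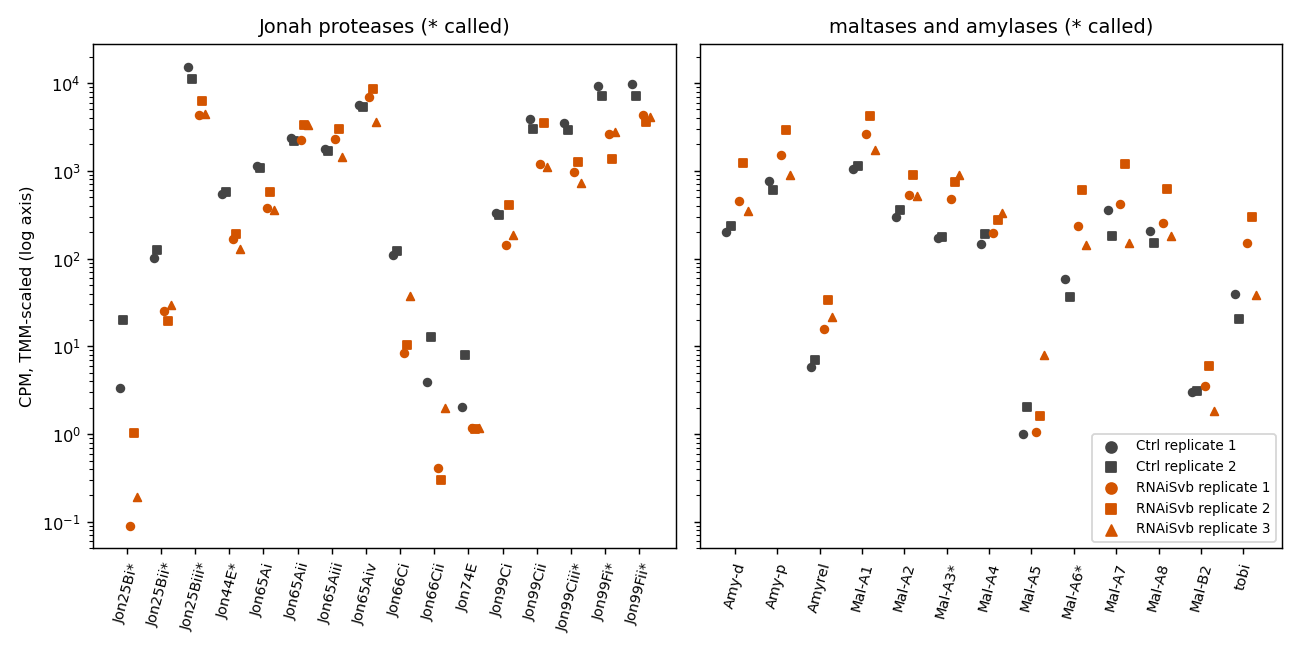
CPM (TMM-scaled, log axis) of each Jonah protease (left) and each maltase or amylase (right) in the 2 Ctrl and 3 RNAiSvb libraries, with 1 point per library and an asterisk on called genes. Most Jonah genes lie lower in RNAiSvb apart from Jon65Aii, Jon65Aiii and Jon65Aiv, and the carbohydrases lie mostly higher, often with RNAiSvb replicate 2 on top; values of 0 do not occur among the genes drawn.

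Alkaline phosphatases, enzymes of the outer cell surface, had lower estimates throughout. All 6 tested members had estimates below 0 (4175 of 8775 over all genes), with a median of -2.50, and 3 fell, where 1.09% of all genes did. Alp10 was at 556 and 621 CPM in Ctrl and 75.1, 63.8 and 67.2 CPM in RNAiSvb, and Alp9 was at 455 and 455 CPM in Ctrl and 93.5, 86.8 and 40.6 CPM in RNAiSvb. In both genes the Ctrl libraries were alike and far above RNAiSvb, and the log2 fold changes were -3.10 (SE 0.29, edgeR adjusted p 0.000696) and -2.63 (SE 0.34, edgeR adjusted p 0.00373). Both were called in all 5 fits with a library left out. In SvbAct, against the same Ctrl libraries, Alp10 and Alp9 stood at -3.01 and -2.75. Alp4 passed the test too (log2 fold change -5.82, SE 1.21, edgeR adjusted p 0.0474), but its Ctrl libraries differed widely, at 0.749 and 29.4 CPM, against 0.136, 0.171 and 0.483 CPM in RNAiSvb. It was called in 1 of those 5 fits, the one without Ctrl replicate 1. Alp5 and Alp6 had estimates of -0.30 and -0.48 (edgeR adjusted p 0.613 and 0.562).

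Genes with chitin-binding domains were described from a list of 8 written after the calls were seen. Among them 3 fell steeply and none rose, where 1.09% of all genes fell, and the median was -0.53 (-1.30 without RNAiSvb replicate 2). The list was chosen with these falls known. CG7298 was at 84.2 and 127 CPM in Ctrl and 7.95, 6.75 and 4.45 CPM in RNAiSvb, CG32284 at 30.3 and 40.2 CPM in Ctrl and 3.45, 0.897 and 1.89 CPM in RNAiSvb and CG6933 at 4.71 and 9.48 CPM in Ctrl and 0.363, 0.299 and 0.242 CPM in RNAiSvb. Every Ctrl library lay well above every RNAiSvb library. The log2 fold changes were -4.05 (SE 0.43, edgeR adjusted p 0.00136), -4.08 (SE 0.52, edgeR adjusted p 0.00373) and -4.52 (SE 0.57, edgeR adjusted p 0.00373). The same genes stood between -1.08 and -0.69 in SvbAct against the same Ctrl libraries, none of them past the threshold that 3.44% of genes passed in that comparison, and they differed between SvbAct and RNAiSvb (edgeR adjusted p 0.00136, 0.00608 and 0.00363). drd, a gene needed for a proper peritrophic matrix and named after its values were seen, was at 3.8 and 2.24 CPM in Ctrl and 0.182, 0.0427 and 0.242 CPM in RNAiSvb, and fell by 4.24 (SE 0.74, edgeR adjusted p 0.021). The call of drd was lost without Ctrl replicate 1, Ctrl replicate 2 or RNAiSvb replicate 1, and that of CG6933 without Ctrl replicate 2. Peritrophin-15a (81.6 and 66.8 CPM in Ctrl and 61.6, 44.8 and 34.1 CPM in RNAiSvb) was not called, and a prepared list of 20 peritrophin, mucin and chitin genes held no call.

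Genes of lipid synthesis fell in part. SREBP, the transcription factor that drives fatty acid synthesis genes, was at 294 and 261 CPM in Ctrl and 132, 147.9 and 102 CPM in RNAiSvb. Desat1, the main fatty acid desaturase, was at 705 and 808 CPM in Ctrl and 300.1, 370.2 and 327 CPM in RNAiSvb. The groups did not overlap, and the log2 fold changes were -1.13 (SE 0.19, edgeR adjusted p 0.0151) and -1.19 (SE 0.21, edgeR adjusted p 0.0203). These were the calls among 19 genes of fatty acid synthesis and storage, whose median was -0.15. FASN1, the fatty acid synthase, stood at 235 and 330.1 CPM in Ctrl and 146, 134 and 107 CPM in RNAiSvb (log2 fold change -1.13, edgeR adjusted p 0.0791). Of the 5 fits with a library left out, SREBP was called in 2 (without RNAiSvb replicate 2 or 3) and Desat1 in 1 (without RNAiSvb replicate 2). In SvbAct, SREBP and Desat1 stood at -0.22 and -0.26 on the log2 scale against the same Ctrl libraries, and both differed between SvbAct and RNAiSvb (edgeR adjusted p 0.0126 and 0.0194).

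Of 10 sphingomyelinase and ceramide genes 1 fell: CG15534, classed with the acid sphingomyelinases, was at 492 and 675 CPM in Ctrl and 114, 88.2 and 101 CPM in RNAiSvb. No values overlapped, and the log2 fold change was -2.53 (SE 0.24, edgeR adjusted p 0.000701), called in all 5 fits with a library left out. No member of a list of 14 genes of lipid digestion and export passed the test. Its most abundant member, the intestinal lipase mag, was at 6437 and 5827 CPM in Ctrl and 3307, 3853 and 4446 CPM in RNAiSvb, lower in every RNAiSvb library, with an estimate of -0.66 (edgeR adjusted p 0.407). The sterol-binding Npc2d (229 and 296 CPM in Ctrl and 95.1, 132 and 138 CPM in RNAiSvb) and Npc2e (184 and 90.4 CPM in Ctrl and 60.4, 42.6 and 43.1 CPM in RNAiSvb) had estimates of -1.11 and -1.50 (edgeR adjusted p 0.0627 and 0.0755).

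Among detoxification enzymes there was no common direction. Of 60 cytochrome P450 genes 4 fell and 1 rose, with a median of -0.05. Cyp6a14 rose by 1.31 (SE 0.23, edgeR adjusted p 0.021), from 36.6 and 31.8 to 71.6, 81.3 and 102 CPM. Cyp4e2 (91.6 and 159 CPM in Ctrl and 29.6, 38.7 and 44.5 CPM in RNAiSvb) and Cyp9f3 (117 and 108 CPM in Ctrl and 62.5, 66.7 and 64.1 CPM in RNAiSvb) fell by 1.74 and 0.80 (edgeR adjusted p 0.0152 and 0.0312). Cyp6a18 was called as well, yet its Ctrl libraries stood at 1.02 and 17.4 CPM and it was called in 1 of the 5 fits with a library left out. spo, a P450 of ecdysteroid synthesis, was at 8.82 and 17.8 CPM in Ctrl and 1.32, 1.41 and 3.72 CPM in RNAiSvb and fell by 2.63 (SE 0.52, edgeR adjusted p 0.0378). In SvbAct against the same Ctrl libraries, Cyp6a14 was called higher too, at 1.63 (edgeR adjusted p 0.00536). Cyp4e2, spo and Cyp6a18 were called lower there (edgeR adjusted p 0.0428, 0.0208 and 0.0185), and Cyp9f3 was not called (edgeR adjusted p 0.0533). Without Ctrl replicate 2 or without RNAiSvb replicate 1 no fall among the P450 genes was called, without RNAiSvb replicate 2 there was 1, and without Ctrl replicate 1 or RNAiSvb replicate 3 there were 2. Cyp6a14 was not called without Ctrl replicate 1, Ctrl replicate 2 or RNAiSvb replicate 3.

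The UDP-glycosyltransferases, which attach sugars to small molecules, held the rise with the lowest adjusted p of the comparison. Ugt49B1 (FBgn0027073, chromosome 2R, 21212880 to 21214972 in BDGP6.54) was at 1.44 and 1.27 CPM in Ctrl and 102, 119 and 91.8 CPM in RNAiSvb, nearly absent from both Ctrl libraries and even across RNAiSvb. It rose by 6.25 (SE 0.26, edgeR adjusted p 1.27e-06) and was the 1 rise called in all 5 fits with a library left out. In SvbAct it stood at 130.1, 158 and 173 CPM, 6.81 above the same Ctrl libraries on the log2 scale, with no difference called between SvbAct and RNAiSvb (edgeR adjusted p 0.065). Its exons overlap CG44245, so part of its reads may belong to that gene. Ugt35C1 went the other way, from 231 and 181 to 72, 104 and 51.8 CPM, and fell by 1.44 (SE 0.26, edgeR adjusted p 0.0249), not called without Ctrl replicate 1, Ctrl replicate 2 or RNAiSvb replicate 1. In SvbAct against the same Ctrl libraries Ugt35C1 was called lower too, at -2.84 (edgeR adjusted p 0.000561), and it differed between SvbAct and RNAiSvb (edgeR adjusted p 0.00911). Over 29 tested members of the family the median was -0.16.

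No gene among 28 glutathione transferases passed the test. GstD1 stood at 220.4 and 307 CPM in Ctrl and 452, 472 and 352 CPM in RNAiSvb (log2 fold change 0.69, edgeR adjusted p 0.17). The carboxylesterases alpha-Est1 (82.5 and 78.2 CPM in Ctrl and 23.3, 36 and 34.2 CPM in RNAiSvb) and alpha-Est4 (22.8 and 21 CPM in Ctrl and 7.54, 10.6 and 10.2 CPM in RNAiSvb) fell by 1.37 and 1.21 (edgeR adjusted p 0.00723 and 0.0312), as the called members of 14. Neither was called without Ctrl replicate 1 or Ctrl replicate 2, and alpha-Est4 also not without RNAiSvb replicate 1 or 3. In 35 ecdysteroid kinase-like genes, a list written after the calls were seen, CG11893 fell by 4.28 (SE 0.49, edgeR adjusted p 0.00235) from 36.3 and 39.1 to 0.954, 2.01 and 2.85 CPM, and CHKov1, chosen after its values were seen, fell by 1.56 (SE 0.20, edgeR adjusted p 0.00373). CHKov1 was not called without Ctrl replicate 2, and CG11893 was called in all 5 fits. In SvbAct against the same Ctrl libraries, CG11893 and CHKov1 were called lower too, at -5.02 and -1.27 (edgeR adjusted p 0.000766 and 0.007). The median of the ecdysteroid kinase-like list was 0.12.

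Transporters and enzymes of central metabolism gave single calls. The trehalase gene Treh, whose product splits the blood sugar trehalose, was at 718 and 756 CPM in Ctrl and 324, 341 and 423 CPM in RNAiSvb and fell by 1.02 (SE 0.21, edgeR adjusted p 0.0434), the 1 call in 19 glycolysis and sugar genes. ZnT77C, a zinc transporter, was at 70 and 62.4 CPM in Ctrl and 23.7, 30.7 and 24.4 CPM in RNAiSvb and fell by 1.33 (SE 0.18, edgeR adjusted p 0.00462). sbm, an amino acid transporter, was at 157 and 167 CPM in Ctrl and 75.2, 79.7 and 40.9 CPM in RNAiSvb and fell by 1.31 (SE 0.26, edgeR adjusted p 0.0359). Each of these genes had all RNAiSvb libraries below Ctrl. Oatp58Da, an organic anion transporter, fell by 2.57 (SE 0.29, edgeR adjusted p 0.00228), from 12.5 and 9.3 to 1.41, 2.01 and 2.08 CPM, against 10.6, 10.6 and 10.7 CPM in SvbAct, and was called in all 5 fits with a library left out. Treh was called in none of those fits. ZnT77C was not called without Ctrl replicate 1 or 2, nor sbm without these or RNAiSvb replicate 1.

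nrv3, Mpc1 and Mipp1 were named after their values were seen. nrv3, a beta subunit of the Na/K-ATPase, fell by 1.87 (SE 0.26, edgeR adjusted p 0.00629) from 162 and 130.5 to 46, 35.1 and 38.7 CPM. Mpc1, of the mitochondrial pyruvate carrier, fell by 0.93 (SE 0.19, edgeR adjusted p 0.0473), and Mipp1, an inositol polyphosphate phosphatase, by 1.06 (SE 0.15, edgeR adjusted p 0.00609). In SvbAct against the same Ctrl libraries, nrv3, Mpc1 and Mipp1 were called lower too, at -1.54, -0.94 and -1.23 (edgeR adjusted p 0.0115, 0.027 and 0.0028). NKCC, a sodium, potassium and chloride cotransporter, was at 13.9 and 6.34 CPM in Ctrl and 33.2, 48.6 and 38.7 CPM in RNAiSvb and rose by 1.99 (SE 0.40, edgeR adjusted p 0.0381). It was called in none of the 5 fits with a library left out. In SvbAct it was at 3.31, 4.94 and 2.22 CPM, and the difference between SvbAct and RNAiSvb passed the test (edgeR adjusted p 0.000662). r, which encodes the enzyme that starts pyrimidine synthesis, rose by 1.57 (SE 0.28, edgeR adjusted p 0.0221) from 43.7 and 31.2 to 75, 145 and 115 CPM, the 1 call in 10 nucleotide synthesis genes. In SvbAct against the same Ctrl libraries r was called higher too, at 1.18 (edgeR adjusted p 0.0444). Ect3, a beta-galactosidase, was at 0.588 and 0.362 CPM in Ctrl and 9.27, 18 and 6.82 CPM in RNAiSvb and rose by 4.55 (SE 0.57, edgeR adjusted p 0.00373). Calls were lost without Ctrl replicate 1 for nrv3, Mpc1 and r, without Ctrl replicate 2 for Mpc1, Mipp1, r and Ect3, without RNAiSvb replicate 2 for Mpc1, and without RNAiSvb replicate 3 for Mpc1 and r.

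bnl and sli, which encode secreted ligands, fell. bnl, the FGF ligand that guides tracheal branching, was at 217 and 228 CPM in Ctrl and 97.7, 107 and 87.7 CPM in RNAiSvb and fell by 1.19 (SE 0.15, edgeR adjusted p 0.00374). sli, the Slit guidance ligand, was at 203 and 212 CPM in Ctrl and 88.6, 80.7 and 67.9 CPM in RNAiSvb and fell by 1.39 (SE 0.20, edgeR adjusted p 0.00629). The libraries of each group were close to each other in both genes, which were named after their values were seen. In SvbAct against the same Ctrl libraries, bnl and sli stood at 0.16 and 0.03, and the differences between SvbAct and RNAiSvb passed the test (edgeR adjusted p 0.000662 and 0.00182). Without Ctrl replicate 2 neither bnl nor sli was called.

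ImpL2, a secreted protein that binds insulin-like peptides, fell by 4.25 (SE 0.84, edgeR adjusted p 0.0373). The Ctrl libraries lay far apart, at 4.87 and 23.7 CPM, against 1.27, 0.513 and 0.435 CPM in RNAiSvb, and ImpL2 was called in 1 of the 5 fits with a library left out, that without Ctrl replicate 1. Dh31, a gut peptide hormone of enteroendocrine cells, was at 9.95 and 13.7 CPM in Ctrl and 2.77, 2.56 and 2.71 CPM in RNAiSvb and fell by 2.14 (SE 0.30, edgeR adjusted p 0.00629). It was the 1 call among 10 peptide genes. The other tested enteroendocrine markers were not called: AstC stood at 174 and 216 CPM in Ctrl and 232, 150.5 and 169 CPM in RNAiSvb, Tk at 20.3 and 18.8 CPM in Ctrl and 23.5, 25.8 and 14.5 CPM in RNAiSvb and pros at 21.7 and 18.7 CPM in Ctrl and 27.1, 17.1 and 16.7 CPM in RNAiSvb. Pebp1, of the phosphatidylethanolamine-binding family, was at 272 and 327 CPM in Ctrl and 94.8, 95.5 and 57.9 CPM in RNAiSvb and fell by 1.85 (SE 0.33, edgeR adjusted p 0.024), while SvbAct stood above the same controls at 963, 1852 and 844 CPM (edgeR adjusted p 0.0135), and the difference between SvbAct and RNAiSvb passed the test (edgeR adjusted p 0.000329). Buffy, a Bcl-2 family gene, fell by 1.16 (SE 0.21, edgeR adjusted p 0.0267), the 1 call in 11 cell death genes. Dh31 was not called without Ctrl replicate 2, Buffy was called only without RNAiSvb replicate 2, and Pebp1 was called in none of the 5 fits.

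**Figure D3:**
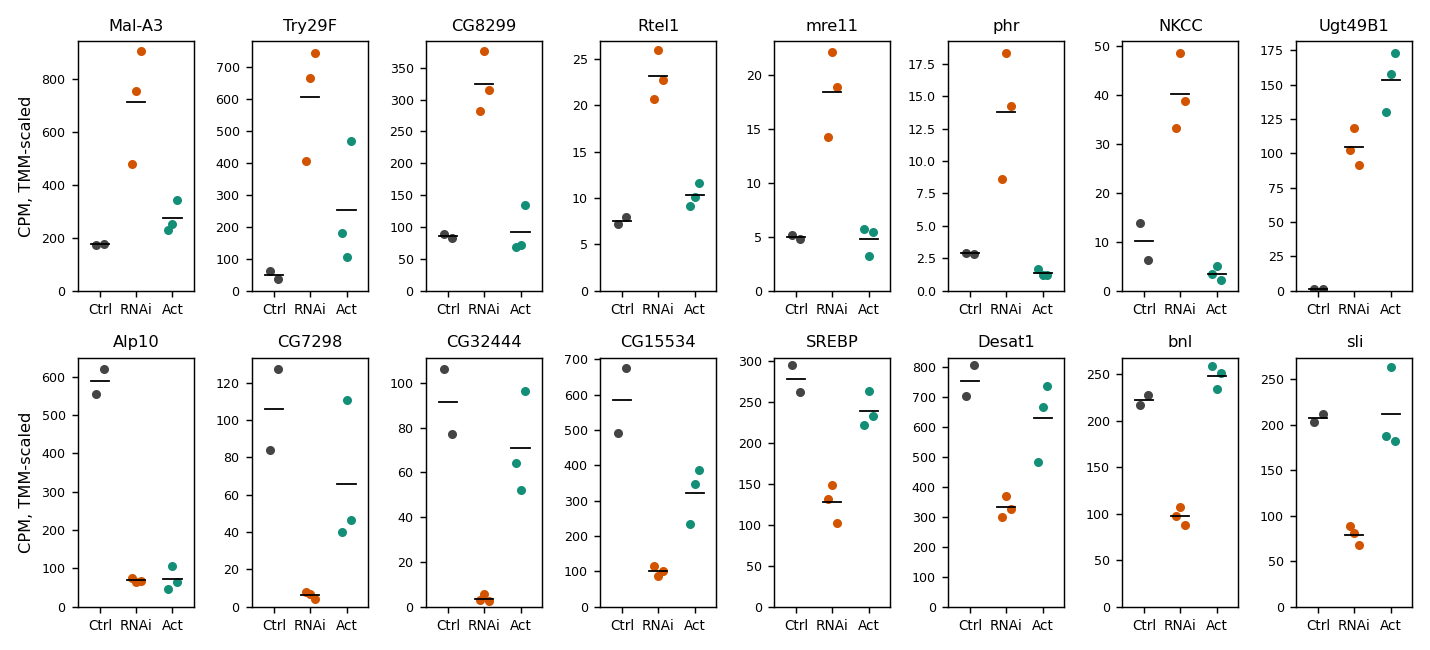
CPM (TMM-scaled, axes from 0) of 16 called genes in each Ctrl, RNAiSvb and SvbAct library, with 1 point per library and a line at the group mean. The first 8 panels are rises and the last 8 are falls in RNAiSvb, and the SvbAct points (Act) lie near the Ctrl points for mre11, bnl and sli, below them for phr and NKCC, and near those of RNAiSvb (RNAi) for Alp10.

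Genes of DNA repair were found among the rises. In a list of 46, written after the calls were seen and so chosen with these rises known, 3 rose and none fell. Over all genes tested, 0.262% rose. In that list 34 estimates were above 0 (4599 of 8775 over all genes), and the median was 0.45. Rtel1, a helicase that resolves DNA structures, was at 7.17 and 7.91 CPM in Ctrl and 20.7, 26 and 22.7 CPM in RNAiSvb. mre11, a nuclease of double-strand break repair, was at 5.19 and 4.77 CPM in Ctrl and 14.3, 22.2 and 19 CPM in RNAiSvb. phr, a photolyase that reverses ultraviolet lesions, was at 2.89 and 2.84 CPM in Ctrl and 8.63, 18.4 and 14.3 CPM in RNAiSvb. All of these had every RNAiSvb library above both Ctrl libraries, at low absolute levels, and they rose by 1.62 (SE 0.23, edgeR adjusted p 0.00681), 1.89 (SE 0.33, edgeR adjusted p 0.0204) and 2.26 (SE 0.39, edgeR adjusted p 0.0203).

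In SvbAct against the same Ctrl libraries, Rtel1, mre11 and phr stood at 0.45, -0.05 and -1.08, none past the threshold, and each differed between SvbAct and RNAiSvb (edgeR adjusted p 0.00813, 0.00368 and 0.000756). The mismatch repair gene Msh6 (2.51 and 2.66 CPM in Ctrl and 7.45, 6.41 and 8.32 CPM in RNAiSvb) and the checkpoint kinase grp (24.2 and 25.6 CPM in Ctrl and 38.9, 38.9 and 41.3 CPM in RNAiSvb) had estimates of 1.51 and 0.67 (edgeR adjusted p 0.0578 and 0.0703). The partners of Mre11 did not separate: rad50 had an estimate of 0.52 and nbs of -0.13 (edgeR adjusted p 0.326 and 0.868). No repair gene was called without Ctrl replicate 1 or Ctrl replicate 2, 1 was called without RNAiSvb replicate 2 or replicate 3, and all 3 without RNAiSvb replicate 1. Exons of mre11 and phr overlap those of Osi21 and Prosalpha1.

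Zwilch, a kinetochore gene, was at 2.51 and 3.44 CPM in Ctrl and 8.95, 10 and 18.9 CPM in RNAiSvb and rose by 2.08 (SE 0.40, edgeR adjusted p 0.0351), not called without Ctrl replicate 1, Ctrl replicate 2 or RNAiSvb replicate 3. In the prepared list of 33 cell cycle and replication genes none was called. Its median was 0.65, against 0.33 without Ctrl replicate 1 and 0.34 with the replicate block. PCNA, the sliding clamp of replication, was at 0.267 and 0.785 CPM in Ctrl and 1.09, 0.769 and 1.11 CPM in RNAiSvb, near the floor of detection. Top2, the topoisomerase, stood at 35.7 and 29.2 CPM in Ctrl and 50, 55.7 and 61.7 CPM in RNAiSvb (log2 fold change 0.78, edgeR adjusted p 0.0755).

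Genes of protein synthesis and of the nuclear share of oxidative phosphorylation sat slightly above 0 with no call. Over all genes tested, 4599 of 8775 estimates were above 0 and 4175 below. Of 78 cytosolic ribosomal protein genes 66 had estimates above 0, with a median of 0.19, and the median ran from 0.00 without RNAiSvb replicate 2 to 0.34 without Ctrl replicate 1. Of 69 mitochondrial ribosomal protein genes 59 were above 0 (median 0.30), and 25 of the 69 had higher, non-overlapping values in RNAiSvb, where 15.9% of all genes did. Of 34 aminoacyl-tRNA synthetases 31 were above 0 (median 0.29, but 0.15 without RNAiSvb replicate 2), and of 69 nuclear oxidative phosphorylation genes 55 (median 0.24). ND-30, a complex I subunit, was at 96.7 and 80.3 CPM in Ctrl and 132, 196 and 127 CPM in RNAiSvb (log2 fold change 0.78, edgeR adjusted p 0.132). The 20 genes of the mitochondrial genome, a list also written after the calls were seen, lay on the other side, all with estimates below 0 and a median of -0.75, none called. Their summed level was 30070 and 53810 CPM in Ctrl and 48120, 22530 and 28170 CPM in RNAiSvb, so the groups overlapped. Their median ran from -1.30 without RNAiSvb replicate 1 to -0.25 without Ctrl replicate 2.

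**Figure D4:**
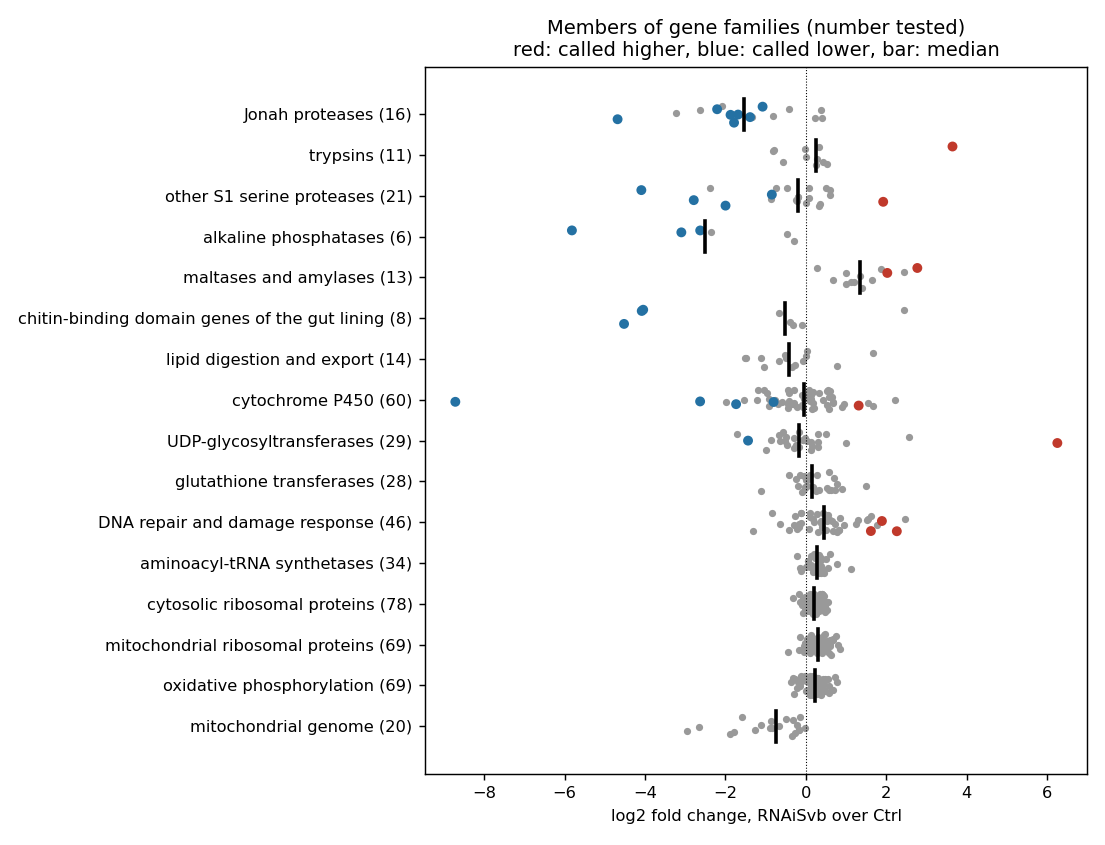
Fitted log2 fold change of RNAiSvb over Ctrl (x axis) for each tested member of 16 gene families (rows, number tested in brackets), with red for called higher, blue for called lower, grey for not called and a bar at the family median. Jonah proteases and alkaline phosphatases lie mostly left of 0, maltases and amylases all right of 0, and ribosomal and oxidative phosphorylation genes form narrow bands just right of 0.

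Signalling pathways of gut renewal gave no call. The lists covered 14 genes of the Notch, 10 of the JAK-STAT, 15 of the EGFR, 13 of the Hippo, 14 of the Wingless, 9 of the BMP and 15 of the JNK pathway. The Notch receptor gene N stood at 5.99 and 6.58 CPM in Ctrl and 12.8, 11.3 and 9.43 CPM in RNAiSvb and the pathway's repressor H at 45.8 and 46.8 CPM in Ctrl and 46.7, 35.1 and 34.4 CPM in RNAiSvb (edgeR adjusted p 0.247 and 0.606). Stat92E, the JAK-STAT transcription factor, was at 740.3 and 738 CPM in Ctrl and 692, 684 and 643 CPM in RNAiSvb (edgeR adjusted p 0.778). The proapoptotic gene hid, in the JNK list, was at 72.6 and 108 CPM in Ctrl and 30, 24.9 and 48.5 CPM in RNAiSvb, lower in each RNAiSvb library (log2 fold change -1.39, edgeR adjusted p 0.058).

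The junction and brush border lists gave no call. None of 15 smooth septate junction genes and none of 15 brush border and cortex genes passed the test, and their medians were 0.05 and 0.02. The spectrin gene kst was at 3304 and 3589.9 CPM in Ctrl and 3094, 3726 and 3102 CPM in RNAiSvb and the brush border myosin gene Myo61F at 2058 and 1928 CPM in Ctrl and 1772, 2554 and 2239 CPM in RNAiSvb. The enterocyte transcription factor nub was at 559 and 509.6 CPM in Ctrl and 861, 703 and 821 CPM in RNAiSvb, higher in each RNAiSvb library without passing (log2 fold change 0.57, edgeR adjusted p 0.232). Among 8 tested genes known as Svb targets in the embryonic epidermis none was called. f, which encodes the actin-bundling protein Forked, was at 0.214 and 0.362 CPM in Ctrl and 0.818, 1.2 and 2.76 CPM in RNAiSvb (log2 fold change 2.44, edgeR adjusted p 0.217), and sn, the fascin gene, at 4.01 and 3.5 CPM in Ctrl and 5.54, 2.69 and 4.4 CPM in RNAiSvb. Of 8 peptidoglycan recognition proteins none was called, although PGRP-SC1a, an amidase that degrades bacterial wall fragments, stood at 8.4 and 6.4 CPM in Ctrl and 39.6, 47.2 and 75.6 CPM in RNAiSvb (log2 fold change 2.87, edgeR adjusted p 0.0943).

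Other processes gave no call either. None of 22 heat shock, 30 proteasome, 19 V-ATPase, 16 lysosome, 19 autophagy, 22 endoplasmic reticulum stress and translocon, 17 TCA cycle or 13 peroxisome genes passed the test, and the medians of these lists lay between -0.12 and 0.15. No gene among 13 sugar transporter, 16 antioxidant, 12 ecdysone response and 14 IMD pathway genes passed either. The 18 tested sarcomere genes had a median of 0.67, which was -0.07 without RNAiSvb replicate 3 and 1.25 without Ctrl replicate 1, and no call, beside the muscle marker sums that spread widely in RNAiSvb. Their part in other results was not tested.

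Genes with no role given here also took part in both directions. Among the larger falls, CG32444 was at 106 and 77.2 CPM in Ctrl and 2.91, 5.51 and 2.47 CPM in RNAiSvb and fell by 4.65 (SE 0.37, edgeR adjusted p 0.00024). In SvbAct it stood at 64.4, 52.1 and 96.4 CPM, and the difference between SvbAct and RNAiSvb passed the test (edgeR adjusted p 0.000223). CG16854 was at 18.5 and 23.5 CPM in Ctrl and 0.318, 0.47 and 0.628 CPM in RNAiSvb and fell by 5.46 (SE 0.38, edgeR adjusted p 9.15e-05), and CG15544 fell by 2.81 (SE 0.29, edgeR adjusted p 0.00115). These 3 were called in all 5 fits with a library left out. In SvbAct against the same Ctrl libraries, CG16854 and CG15544 were called lower too, at -4.30 and -1.67 (edgeR adjusted p 0.000207 and 0.0107).

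CG15186, dpr10, CG43055 and CG32751 fell by 3.19, 2.84, 2.74 and 2.70 (edgeR adjusted p 0.0143, 0.00575, 0.0106 and 0.0373). All of these calls were lost without Ctrl replicate 2. CG32751 was called in 1 of the 5 fits with a library left out, and its Ctrl libraries lay apart, at 32.1 and 81.5 CPM. In SvbAct against the same Ctrl libraries, dpr10 and CG32751 were called lower too, at -2.99 and -2.39 (edgeR adjusted p 0.00398 and 0.0365). CG15186 and CG43055 were not called there (edgeR adjusted p 0.567 and 0.272). Among the rises, CG17321 was at 3.69 and 3.08 CPM in Ctrl and 12.6, 16.5 and 14.8 CPM in RNAiSvb and rose by 2.11 (SE 0.33, edgeR adjusted p 0.0113). CG9641 rose by 2.56 and CG9825 by 1.98 (edgeR adjusted p 0.021 and 0.0307), and the smaller rises CG6023, CG7694, CG15784 and CG12099 ran from 1.42 down to 0.77. In SvbAct against the same Ctrl libraries CG9641 was called higher too, at 2.73 (edgeR adjusted p 0.00993). Of the 3 fits without an RNAiSvb library, CG17321 was called in 3, CG9641 in 2 and CG9825 in 1. None of the smaller rises was called in any of those fits. None of these 7 rises was called without Ctrl replicate 1 or without Ctrl replicate 2.

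Some genes were present in Ctrl and nearly lost in RNAiSvb, where 5 of the called genes had no count in any library. CG14406 (FBgn0030595, chromosome X, 14909873 to 14910845 in BDGP6.54) was at 49.1 and 66 CPM in Ctrl and 0 in RNAiSvb, at least 422-fold lower against a floor of 3 counts per library. hpRNA:CR32207 (13.6 and 9.18 CPM in Ctrl) was at least 83.6-fold, lectin-24A at least 62.4-fold, Spn47C at least 19.4-fold and Gld at least 17.1-fold lower. Syt4, a synaptotagmin of vesicle release, had 511 and 557 counts in Ctrl and 0, 1 and 1 counts in RNAiSvb (edgeR adjusted p 5.89e-05). Syt7, another of the 7 tested synaptotagmins, fell by 2.65 (SE 0.28, edgeR adjusted p 0.00136), from 14.1 and 17.3 to 2.54, 2.86 and 2.08 CPM. Gld was called in none of the 5 fits with a library left out and Spn47C not without Ctrl replicate 2 or RNAiSvb replicate 1. lectin-24A and Gld were named after their values were seen.

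SvbAct shared some of these losses and not others. CG14406 and Syt4 were at 0, 0 and 0 and 0, 0 and 0.114 CPM in SvbAct, and lectin-24A and Gld were each at 0.055, 0 and 0 CPM there. Syt7 was called lower in SvbAct too, at -1.37 against the same Ctrl libraries (edgeR adjusted p 0.0239). The fall of Syt7 was smaller there, and it differed between SvbAct and RNAiSvb (edgeR adjusted p 0.0191). By contrast, hpRNA:CR32207 was at 6.12, 8.28 and 4.68 CPM in SvbAct and Spn47C at 1.32, 0.418 and 1.25 CPM. Both differed between SvbAct and RNAiSvb (edgeR adjusted p 0.000396 and 0.0188). The opposite change, from near 0 in Ctrl, was found for CG33346 at 0.16 and 0.483 CPM in Ctrl and 37.1, 26 and 13.4 CPM in RNAiSvb (log2 fold change 6.31, SE 0.80, edgeR adjusted p 0.00373). In SvbAct CG33346 lay above the same Ctrl libraries too, at 3.31, 12.3 and 5.7 CPM (edgeR adjusted p 0.0125). ftz, a pair-rule gene named after its values were seen, was at 0.16 and 0 CPM in Ctrl and 8.54, 1.79 and 16.3 CPM in RNAiSvb (SE 1.22, edgeR adjusted p 0.0285). Unlike CG33346, ftz was near 0 in SvbAct as well, at 0, 0.0696 and 0.057 CPM. ftz was called in 1 of the 5 fits with a library left out, that without RNAiSvb replicate 2. CG33346 was not called without Ctrl replicate 1 or 2.

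Several falls lay beside each other on the chromosome. There were 11 pairs of adjacent tested genes in which both were called, all 11 with both lower, covering 20 genes. Within 20000 bases of the called genes, 4.27% of 703 neighbours tested, counted once per called gene, were called in its direction, while 1.36% of all genes were called in either. Coordinates are those of BDGP6.54. On chromosome 3L, spo, Alp10 and Alp9 lie together between 5590083 and 5597422, and on 2L Jon25Biii, Jon25Bii and Jon25Bi between 4949941 and 4955144. CG7298 and CG6933, both with chitin-binding domains, lie between 20202070 and 20220420 on 3L. Dh31 lies 507 bases from CG43400 on 2L, which was at 7.7 and 7.37 CPM in Ctrl and 0.545, 0.0855 and 0 CPM in RNAiSvb and was not called without Ctrl replicate 2. spo was called only without RNAiSvb replicate 3.

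Other pairs joined genes of different families. Gld, a glucose dehydrogenase, and Syt4 are separated by 361 bases on 3R (7252063 to 7270809), and fiz and CG14406 by 164 bases on X. fiz, of the same oxidoreductase family as Gld, was at 679 and 772 CPM in Ctrl and 233, 398 and 281 CPM in RNAiSvb and fell by 1.25 (SE 0.26, edgeR adjusted p 0.0465), a call kept only without RNAiSvb replicate 2. Gld and fiz, chosen after their values were seen, were the called members of 4 tested GMC oxidoreductases, a list written after the calls were seen. The 2 other members, CG9512 and Eo, had estimates above 0 and lie near fiz. Genes on either side of these pairs were not called: CG9512, next to fiz, had an estimate of 0.15, and Eo, on the far side of CG14406, one of 1.37 (edgeR adjusted p 0.913 and 0.332). By chromosome arm the share called ran from 1.01% on 2R to 1.87% on 3L, so no single arm held the calls. Whether differences in the DNA between the crosses sit at these loci was not tested.

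**Figure D5:**
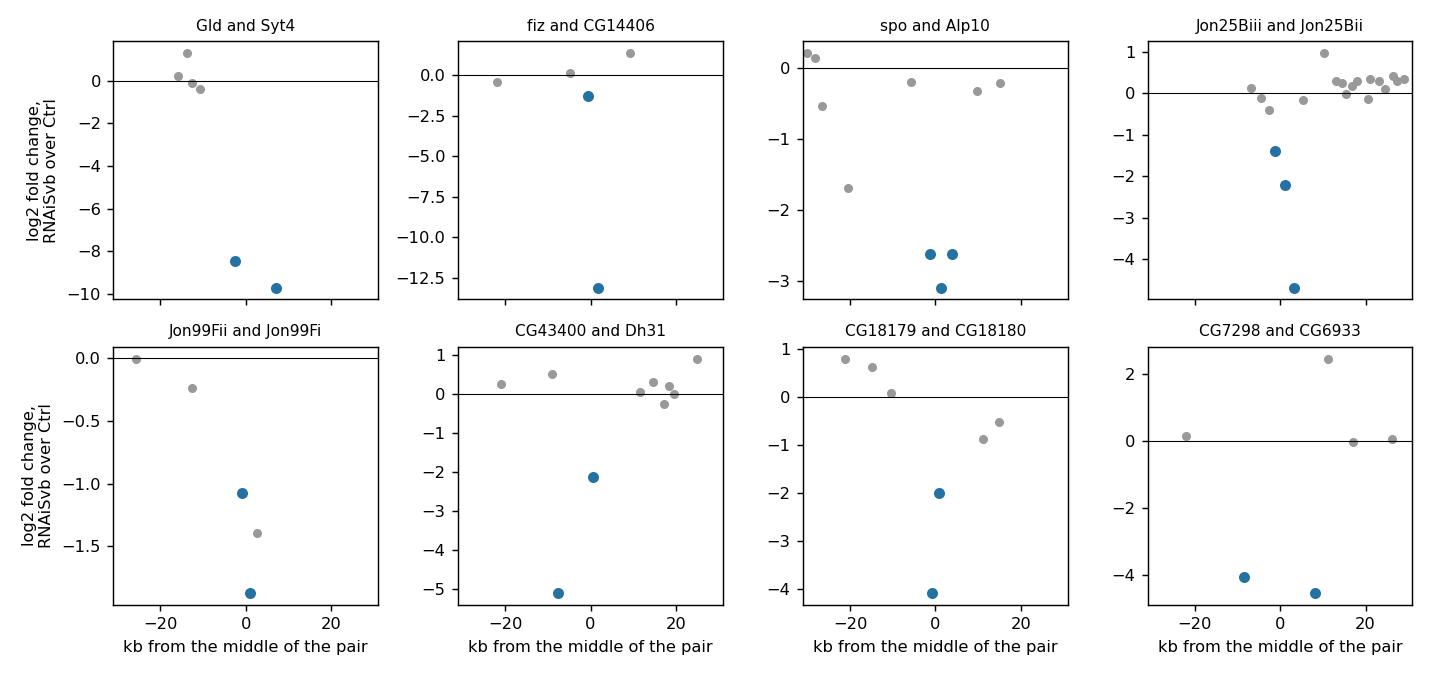
Fitted log2 fold change of RNAiSvb over Ctrl (y axis) of tested genes within 30 kb of the middle of 8 pairs of adjacent called genes (x axis, kb), with called genes in blue and others in grey. Called genes stand next to each other well below 0 while most neighbours lie near 0.

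Noncoding RNA genes added few calls. Of 218 antisense RNA genes 1 rose and 1 fell, with a median of 0.35 that was 0.05 without RNAiSvb replicate 3, 0.55 without Ctrl replicate 1 and 0.09 with the replicate block. Of 128 long noncoding RNA genes 1 fell (lncRNA:CR40469, edgeR adjusted p 0.021). asRNA:CR45192 fell by 1.95 (SE 0.20, edgeR adjusted p 0.00115) and asRNA:CR45835 rose by 3.13 (SE 0.59, edgeR adjusted p 0.0303). Their exons overlap CG1208 and Sec63 on the other strand, and since strand use in counting is not given, reads of the partners cannot be told apart. asRNA:CR45835 was called in none of the 5 fits with a library left out, and lncRNA:CR40469 only in that without RNAiSvb replicate 3. The hairpin RNA genes hpRNA:CR32207 and hpRNA:CR33940, which are neighbours and may share reads, both fell. hpRNA:CR33940 was at 32 and 23 CPM in Ctrl and 6.77, 5.34 and 6.57 CPM in RNAiSvb (log2 fold change -2.14, edgeR adjusted p 0.00296).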

How the data were processed

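RNA from enterocyte patches was made into libraries with the Ovation SoLo kit and read as 100 nt single reads, per the labels' protocols. The deposited table holds raw read counts per gene made by the authors; per the submitters' processing notes, FastQC 0.11.5, STAR 2.5.2b, HTSeq 0.6.0, edgeR and the dm6 build were used. The annotation, strand setting and treatment of molecular identifiers are not given in the sources used here. The authors' own fold changes, p-values and calls were not used. Gene symbols and BDGP6.54 coordinates came from the reference annotation, which named 9060 of 9177 identifiers.

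Counts of all 8 libraries were fitted together in R 4.3.3 with edgeR 4.0.16, so that the 3 SvbAct libraries add to the estimate of spread. filterByExpr left out 402 genes, 24 of them at 0 throughout. TMM factors and quasi-likelihood F tests with Benjamini-Hochberg adjustment over 8775 genes were used, with a threshold of 0.05. The fits kept edgeR's default prior count. A prior count of 2 was set for the log2 CPM behind the correlations of deviations below. Standard errors are the log2 fold change divided by the root of F. CPM use TMM-scaled library sizes. Totals of 15450011 to 23748649 counts and 2 or 3 replicates per group limit the precision. The labels name replicates from different days but not separate stocks, so p-values measure the spread between these samples, which may be partly technical. A chi-square comparison of the 2 Ctrl libraries (62.2 per degree of freedom) showed more than sampling noise.

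The text names called genes whose groups did not overlap and whose log2 CPM averaged 2 or more: the 25 largest falls and all 22 rises. It also names up to 5 called genes per list. Others are said to be chosen after their values were seen. Members and lists were chosen with earlier results of these data known, and 7 lists were written after the calls were seen. The pipeline was tested on simulated data. Alternatives were other scalings and filters, DESeq2 1.42.0, limma 3.58.1 (voom), a replicate block and leaving out each library.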

Additional observations from a re-analysis of the deposited data

How the results depend on the processing

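Under other scalings, filters, voom and a fit of the compared groups alone, between 104 and 146 genes were called. The DESeq2 Wald test called 344 (122 higher, 222 lower), which included 118 of the 119. A threshold of 0.01 left 44 (5 higher, 39 lower). Leaving out 1 library at a time gave 24 to 141 calls, 1 to 35 higher and 23 to 106 lower, with the fewest without Ctrl replicate 2. The ovo estimate was 2.67 by DESeq2 (adjusted p 0.000919) and 2.67 by voom (adjusted p 0.495), with adjusted p 0.239 for the compared groups alone; with a library left out it ran from 2.00 (without Ctrl replicate 2, adjusted p 0.505) to 3.94. Whether replicate numbers pair the samples was not settled. Correlations of same-numbered deviations were -0.0646 and 0.0372 between Ctrl and RNAiSvb and 0.0661 and 0.144 between Ctrl and SvbAct. With 2 Ctrl libraries their deviations mirror each other, so these correlations cannot exclude a pairing. A fit with the replicate block called 124 genes (29 higher, 95 lower), 87 of them shared. Over the 119 called genes and all alternatives, 1479 values kept direction and side of the threshold, 425 kept direction but no longer passed, and 0 changed sign. The groups did not overlap in any of the 119, so refits of the same counts could hardly change a sign. The kept direction is therefore no added evidence. Scaling by library totals moved the median of all genes to 0.13. With 2 Ctrl libraries, losses of a call also come from fewer samples.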
